A study of Homo sapiens with 6 samples.

Results

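The genes described here serve the endoplasmic reticulum (ER) as its folding helpers and as the machinery that brings secreted proteins in and sends them on. They number 60 and were chosen by name as ER chaperones, oxidoreductases, stress sensors, degradation factors, translocation channels, signal peptidase subunits and coat proteins of ER exit. Of the 60, 52 had a named probe detected on at least 3 of the 6 arrays (detection p under 0.05), and each was read by its probe with the highest mean. They stand among 10781 genes so tested. The names were chosen by function, with earlier results of these data known, so the shares below do not come from a blind list.

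The study grew Capan1, an established line of well differentiated human pancreatic cancer cells, on gels of type I collagen and Matrigel. In 3 samples the gel held PS1 cells, a pancreatic stellate cell line, and in the other 3 the titles name cancer cells only. All gels were raised onto a grid after 24 hours, fed from below and taken on day 10, and RNA came from the laser-captured cancer cell layer. Each group therefore rests on 1 cancer line and, where present, 1 stellate line. A further label naming PS1 stands on all 6 samples, against the titles of the 3 samples alone, so every direction below rests on the titles.

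Proteins bound for secretion enter the ER through the SEC61 channel, lose their signal peptide, and fold with the help of HSPA5 (BiP), lectin chaperones and disulphide isomerases. When unfolded proteins build up, the sensors EIF2AK3 (PERK), ERN1 (IRE1) and ATF6 act, and XBP1 and ATF6 raise the transcription of chaperone and degradation genes. Secretory epithelia, among them pancreatic cells, hold much of this machinery. ATF6 with the factor NF-Y is known to act at the ER stress response element (ERSE), and XBP1 at related elements.

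Arrays had mean intensities of 273 to 494 and 16325 to 19602 of 47228 probes detected. Replicate 3 with stellate cells stood apart, with the fewest probes detected and 28S ribosomal RNA at log2 intensities of 10.81 and 12.81 on 2 probes, against 5.94 to 8.27 on the other arrays. All 8 epithelial markers, EPCAM and KRT19 among them, were detected on every array. MUC1, a membrane mucin, rose (log2 change 1.20 ± 0.15, limma adjusted p = 0.0015), and CLDN4, KRT7, KRT8, KRT18, KRT19, CDH1 and EPCAM lay between -0.19 and 0.70 without passing. Of 21 stellate cell and fibroblast markers 6 were measured. Another 10 were detected on no array, among them COL1A2, PDGFRA, PDGFRB, LUM and FAP, and 5 on 1 or 2. Among these 5, DCN passed the detection limit in 2 co-cultures and in 0 samples of cancer cells alone. COL3A1, POSTN and SPARC went the other way, each found in 0 co-cultures and in 1 sample alone. COL5A1 was found in 1 of each. The summed intensity of the 21 ran from 669 to 772 with stellate cells and from 723 to 827 alone. Most of the 21 were detected on 2 arrays or fewer. This sum therefore rests largely on signal near background and says little about stellate cell RNA. Among the measured ones COL6A1 fell (-1.29), while COL1A1, COL6A2, COL6A3, ACTA2 and TAGLN had log2 changes of 0.13, -0.28, 0.61, -1.02 and 0.85, TAGLN being detected on all 3 arrays with stellate cells and on 0 alone. Any part of stellate cell RNA in the results was not tested. Because the captured layer is a bulk sample, fewer cells of a type and less RNA per cell cannot be told apart.

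ERSE-type letters are known from chaperone promoters, so upstream stretches of members that hold such letters are shown before the values. Those of HSP90B1, CANX and PDIA6, which overlap an annotated gene, and of HERPUD1, which was not measured, are left out, and of the UPRE members without ERSE-II only SEC62 and KDELR3 are shown. Promoter windows of 250 bases before to 50 after a gene's start (RefSeq, GRCh38.p14) were at hand for 54 of the 60 members, 72 windows in all. ERSE, spelled CCAAT, then 9 bases of any kind, then CCACG, and searched on both strands like the others, was found in the windows of 7 members: HSPA5, HSP90B1, CRELD2, CALR, CANX, PDIA6 and XBP1. In all it stood in 27 of 35116 windows (0.0769%). ERSE-II, spelled ATTGG, 1 base of any kind and CCACG, was found in 3 members, HYOU1, SDF2L1 and HERPUD1, and in 0.0541% of all windows. The shorter UPRE, spelled TGACGTGG, was found in 9 members and in 0.729% of all windows. HYOU1 holds an ERSE-II at 185 to 175 bases before its start and another at 79 to 69, and the first overlaps a UPRE. A match is a description of letters and not a shown binding site. Below, each stretch runs 5′ to 3′ on the strand of its gene, with the matched letters in capitals. HSPA5 is shown over the whole upstream part of its window, chr9:125241344-125241593 (minus strand). The others are CALR at chr19:12938364-12938422 (plus), XBP1 at chr22:28800583-28800641 (minus), CRELD2 at chr22:49918534-49918592 (plus), HYOU1 at chr11:119057360-119057410 (minus), SDF2L1 at chr22:21642094-21642144 (plus), SEC62 at chr3:169966770-169966806 (plus) and KDELR3 at chr22:38468030-38468077 (plus). CALR, CRELD2, SDF2L1, SEC62 and KDELR3 hold the element in the reverse orientation, as does HYOU1 for the ERSE-II shown.
HSPA5: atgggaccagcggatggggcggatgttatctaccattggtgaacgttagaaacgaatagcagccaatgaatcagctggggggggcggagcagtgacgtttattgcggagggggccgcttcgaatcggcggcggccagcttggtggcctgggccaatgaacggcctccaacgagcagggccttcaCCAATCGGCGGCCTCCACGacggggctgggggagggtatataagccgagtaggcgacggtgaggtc
CALR: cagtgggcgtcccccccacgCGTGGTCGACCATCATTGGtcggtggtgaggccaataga
XBP1: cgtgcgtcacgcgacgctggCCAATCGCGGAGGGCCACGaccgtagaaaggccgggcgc
CRELD2: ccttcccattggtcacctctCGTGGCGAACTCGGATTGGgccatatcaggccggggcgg
HYOU1: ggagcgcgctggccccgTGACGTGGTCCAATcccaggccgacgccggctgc
SDF2L1: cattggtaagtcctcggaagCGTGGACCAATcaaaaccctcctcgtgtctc
SEC62: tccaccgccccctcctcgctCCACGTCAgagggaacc
KDELR3: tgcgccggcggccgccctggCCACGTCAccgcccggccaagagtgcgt

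With stellate cells in the gel, the captured cancer cell layer held more RNA of a few genes grouped as ER chaperones and their partners. Most of the other members stood slightly above their values alone. DNAJB9, CRELD1, HSPA5 and CRELD2 rose, by 1.58-fold to 2.09-fold, and no member fell. The 4 that rose are 7.69% of the 52 measured members, beside 2.65% of all tested genes called higher (286 of 10781) and 2.11% called lower. The log2 change was above 0 in 46 of 52 members, or 88.5%, against 51.8% of all genes, and the median was 0.29 against 0.01. In 19 members all 3 arrays with stellate cells lay above all 3 alone, which is 36.5% of them against 14.6% of all genes, and in 0 members did they lie below, against 11.5%. An unadjusted p under 0.05 was found in 17 members, all higher (32.7%, against 11.1% of all genes). These shares describe the list, and its members were not tested as a set. Scaling arrays by their median in place of quantile normalization lowered the median change of all genes to -0.20, left 31 of 52 members above 0 and called none, although 43 of 52 stayed above that lower median of all genes. Under that scaling 83 probes were higher and 437 lower, against 366 and 363 of 18165 as reported.

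**Figure D1:**
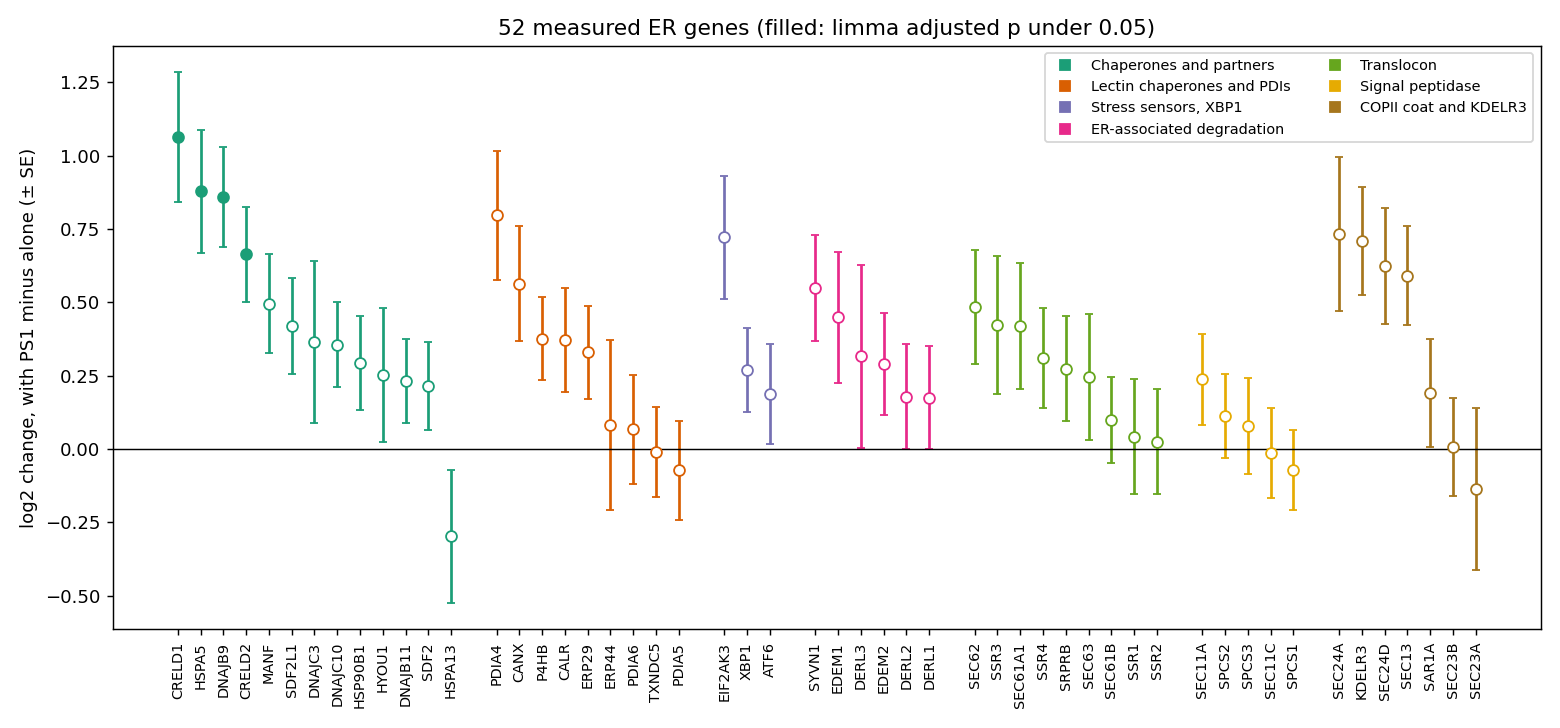
The log2 change with stellate cells minus alone (vertical axis) of the 52 measured members, grouped by role, with bars of ± SE and filled points for limma adjusted p under 0.05. Of the points 46 lie above 0, and 4 genes of the group of chaperones and their partners are filled. With median scaling in place of quantile normalization 31 lie above 0.

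The calls depended on single arrays. With the array of high 28S signal left out (replicate 3 with stellate cells), 15 members rose, or 28.8% of the 52 against 9.61% of all genes in that fit. They were the 4 above with MANF, HYOU1, PDIA4, EIF2AK3, SYVN1, EDEM1, SEC62, SEC13, SEC24A, SEC24D and KDELR3. Without replicate 1 or 2 with stellate cells, or without replicate 1, 2 or 3 alone, 0 members passed the limma threshold, at 12 to 17 with an unadjusted p under 0.05. Calls were also few over all probes in those fits, with 87 to 145 of 18165 higher, against 366 as reported. The share of all genes with an unadjusted p under 0.05 was not taken in them. The median change of the members stayed between 0.24 and 0.33 over all 6 fits with an array left out. The 28S signal moved with this array, and its part in the result was not tested.

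**Figure D2:**
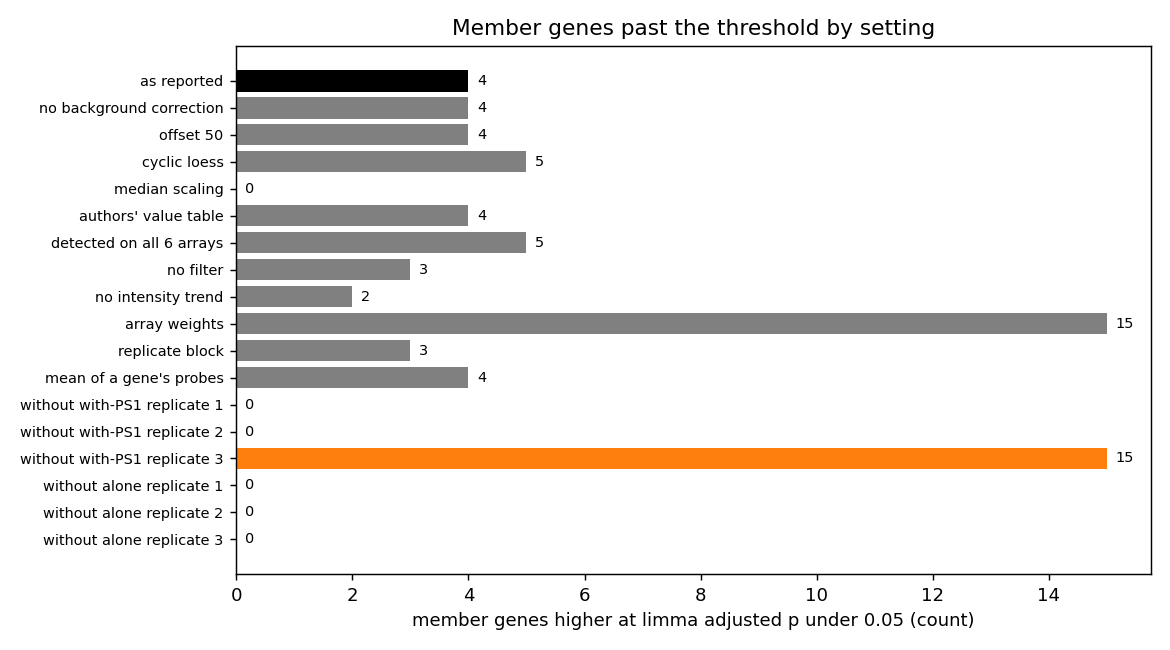
The number of member genes higher at a limma adjusted p under 0.05 (horizontal axis) as reported (black), under other settings (grey) and with an array left out (orange). The count is 4 as reported, 15 without replicate 3 with stellate cells or with array weights, and 0 without any other array or with median scaling. Over all 18165 tested probes 366 were higher as reported, 1363 without that replicate 3 and 1635 with array weights. They numbered 87 to 145 without any other array and 83 with median scaling.

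Among the luminal chaperones and their partners 13 of 13 members were measured, and 12 had changes above 0, or 9 with median scaling. DNAJB9, a J-domain co-chaperone of BiP also known as ERdj4, had log2 intensities of 8.54, 8.38 and 8.30 with stellate cells, in the order of replicates 1 to 3 kept throughout, and 7.61, 7.46 and 7.58 alone. The groups lay apart by more than the spread within either, at 1.81-fold (log2 change 0.86 ± 0.17 SE, limma adjusted p = 0.0174). CRELD1, a membrane-anchored protein with EGF-like repeats, stood at 8.23, 8.17 and 7.58 with stellate cells against 7.10, 6.73 and 6.96 alone. It had the largest change of the members, 2.09-fold (1.06 ± 0.22, adjusted p = 0.0202), with replicate 3 with stellate cells nearer to the arrays alone than the other 2 were. HSPA5, the master chaperone BiP, read 8.996, 9.090 and 8.388 with stellate cells and 8.075, 8.003 and 7.759 alone. Its replicate 3 with stellate cells was again the lowest of its group, yet above every array alone, and the change was 1.84-fold (0.88 ± 0.21, adjusted p = 0.0369, but 0.0723 without the intensity trend). CRELD2, a soluble ER relative of CRELD1 known to be induced by ER stress, read 9.82, 10.05 and 9.66 against 9.27, 9.01 and 9.25. The groups did not overlap, and the change was 1.58-fold (0.66 ± 0.16, adjusted p = 0.0423). CRELD2 did not pass without a filter on detection (adjusted p = 0.0780) or without the intensity trend (0.0937).

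In this group 4 further members had groups apart but did not pass, so that 8 of 13 lay apart upward (61.5%, against 14.6% of all genes). MANF, a small ER protein released under stress, read 12.20, 12.33 and 11.85 with stellate cells and 11.69, 11.39 and 11.82 alone, so that replicate 3 of each group nearly met (0.50 ± 0.17, adjusted p = 0.132). SDF2L1, a partner of the co-chaperone DNAJB11, had a change of 0.42 ± 0.16, and its paralogue SDF2 one of 0.21 ± 0.15. Both had their highest value in replicate 3 with stellate cells, unlike HSPA5. DNAJC10, the disulphide reductase ERdj5, had 0.36 ± 0.15, while its dimmer probe had 0.11 ± 0.21 with overlapping groups. HSP90B1, the ER form of HSP90, stood at 0.29 ± 0.16 and DNAJB11 itself at 0.23 ± 0.14, both with overlapping groups. DNAJC3, which restrains the kinase PERK, had 0.37 ± 0.28, with 7.24 in replicate 3 with stellate cells and 6.14 to 6.40 on the other arrays. HYOU1, which recharges BiP with ATP, had 0.25 ± 0.23, with 9.60 and 9.68 in replicates 1 and 2 with stellate cells but 8.76 in replicate 3, below every array alone. HSPA13, an ER relative of HSP70, was the member with the lowest value, at -0.30 ± 0.23 (adjusted p = 0.540).

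**Figure D3:**
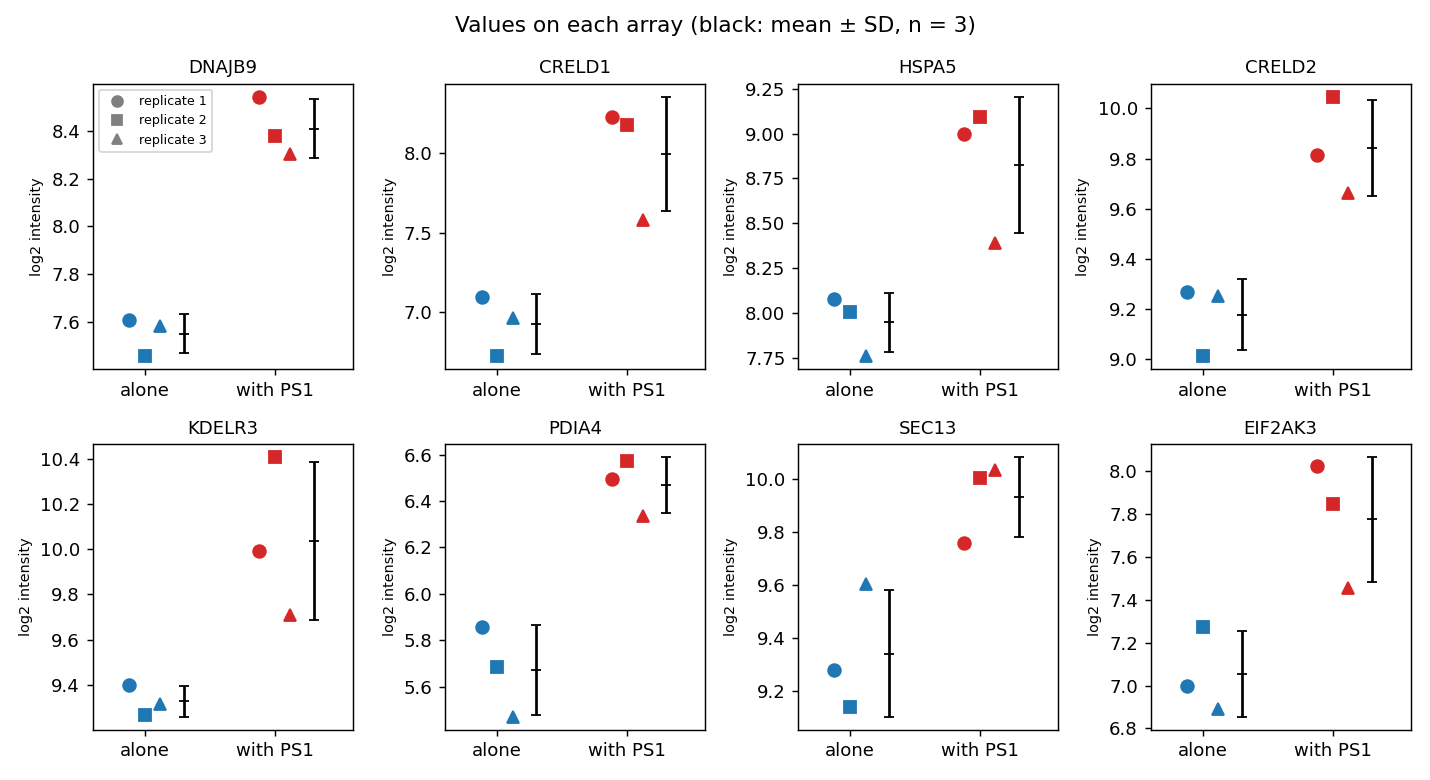
Normalized log2 intensity (vertical axis) on each array for 8 members, blue alone and red with stellate cells, with the mean ± SD of 3 arrays in black. These are the 8 members with the smallest limma p, so groups apart go with that choice. In all 8 the groups do not overlap, against 36.5% of the measured members and 14.6% of all genes with groups apart upward. Replicate 3 with stellate cells (triangle) is the lowest of its group in 7, SEC13 being the exception, against 61.5% of members and 43.1% of all genes.

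Of the lectin chaperones and protein disulphide isomerases 9 of 10 were measured, and 7 had changes above 0 (6 with median scaling). In this group 0 passed the limma threshold, and 3 of 9 were higher at an unadjusted p under 0.05, against 11.1% of all genes. PDIA4, an isomerase of the ER lumen, read 6.49, 6.57 and 6.34 with stellate cells and 5.86, 5.69 and 5.47 alone. The groups lay apart, and the change of 0.80 ± 0.22 missed the threshold (adjusted p = 0.0660) and ranged over the alternatives from 0.0043 with array weights to 0.332 with median scaling, passing at 0.0438 when only probes detected on all 6 arrays were tested. CANX, the membrane lectin calnexin, read 8.60, 8.48 and 8.87 against 8.28, 7.75 and 8.22 (0.56 ± 0.20, adjusted p = 0.142). Here replicate 3 with stellate cells was the highest array. The other probe of CANX had a change of 0.27 ± 0.19 with overlapping groups. P4HB, the isomerase PDI itself, had a change of 0.38 ± 0.14 with groups apart. CALR, the soluble lectin calreticulin, had 0.37 ± 0.18, and ERP29, an isomerase-fold protein, 0.33 ± 0.16, both with groups that overlapped. The remaining isomerases stayed near 0, with ERP44, which retrieves proteins from beyond the ER, at 0.08 ± 0.29, PDIA6 at 0.07 ± 0.19, TXNDC5 at -0.01 ± 0.15 and PDIA5 at -0.07 ± 0.17. Detection of ERP44 was limited to 2 arrays of co-cultures and 1 of cancer cells alone. PDIA3, the glycoprotein isomerase, had a named probe that was detected on no array and was not tested.

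Of the stress sensors and their transcription factors 3 of 5 were measured, with changes above 0 in 3 (2 with median scaling). In this group 0 passed the limma threshold, and 1 of 3 was higher at an unadjusted p under 0.05, against 11.1% of all genes. EIF2AK3, the kinase PERK that slows translation under ER stress, read 8.024, 7.846 and 7.457 with stellate cells and 6.998, 7.276 and 6.888 alone. No array with stellate cells lay as low as those alone, and the change was 0.72 ± 0.21 (limma adjusted p = 0.0820). XBP1, the factor whose RNA IRE1 splices, read 11.59, 11.51 and 11.32 against 11.04, 11.29 and 11.28. These groups lay just apart (0.27 ± 0.14, adjusted p = 0.355), and its other probe had a change of 0.36 ± 0.14. ATF6 had a change of 0.19 ± 0.17 with overlapping groups. The probes of ERN1, which encodes IRE1, and of CREB3L1, a relative of ATF6, were detected on no array.

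Of the genes of ER-associated degradation, which sends misfolded proteins back to the cytosol, 6 of 8 were measured, with changes above 0 in 6 (4 with median scaling). In this group 0 passed the limma threshold, and 1 of 6 was higher at an unadjusted p under 0.05, against 11.1% of all genes. SYVN1, the ubiquitin ligase HRD1, read 10.22, 10.41 and 9.74 with stellate cells and 9.48, 9.61 and 9.64 alone. Replicate 3 with stellate cells lay just above the highest array alone (0.55 ± 0.18, adjusted p = 0.122), and a dimmer probe of SYVN1 had a change of -0.00 ± 0.24. EDEM1, which helps to select misfolded glycoproteins, read 9.13, 9.38 and 8.47 against 8.71, 8.50 and 8.42, so the groups overlapped through replicate 3 with stellate cells (0.45 ± 0.22, adjusted p = 0.312). EDEM2, which trims mannose, had 0.29 ± 0.17. The derlins, membrane proteins of the retrotranslocation site, had similar small values, 0.32 ± 0.31 for DERL3, 0.18 ± 0.18 for DERL2 and 0.18 ± 0.18 for DERL1. The probe of SEL1L, the partner of SYVN1, was detected on 1 array, and HERPUD1 had no named probe in the annotation used here.

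The translocation genes were measured in 9 of 10 members, all above 0 with a median change of 0.27. With median scaling 6 were above 0 and the median was 0.02, beside -0.20 for all genes. In this group 0 passed the limma threshold, and 1 of 9 was higher at an unadjusted p under 0.05, near the 11.1% of all genes. SEC62, which helps proteins enter after their synthesis, was the only member of this group with groups apart, at 8.09, 8.33 and 7.94 with stellate cells and 7.47, 7.90 and 7.53 alone (0.48 ± 0.19, adjusted p = 0.200). SEC61A1, the channel itself, read 11.44, 12.14 and 11.86 against 11.66, 10.95 and 11.56. Its groups overlapped (0.42 ± 0.22, adjusted p = 0.330). SEC63, the partner of SEC62, had 0.25 ± 0.22, and SEC61B, the small beta subunit, 0.10 ± 0.15. Among the subunits of the translocon-associated complex, SSR3 had 0.42 ± 0.24 and SSR4 0.31 ± 0.17, while SSR1 and SSR2 had 0.04 ± 0.20 and 0.03 ± 0.18. SRPRB, which anchors the receptor of the signal recognition particle, had 0.27 ± 0.18. SEC61G had no named probe in the annotation used here.

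The signal peptidase, which cuts off the signal peptide, had the smallest median change of the 7 role groups, 0.08 over 5 measured members of 5. With median scaling it was -0.18, close to the -0.20 of all genes. In 0 of its members did the groups lie apart. None passed the limma threshold or had an unadjusted p under 0.05. Its catalytic subunit SEC11A read 12.16, 12.05 and 11.82 with stellate cells and 11.74, 11.59 and 11.99 alone, an overlap (0.24 ± 0.15, limma adjusted p = 0.457). SPCS2 read 11.99, 11.92 and 11.67 against 11.76, 11.64 and 11.84 (0.11 ± 0.14, adjusted p = 0.733), again with overlap. SPCS3 had 0.08 ± 0.16, SEC11C, the alternative catalytic subunit, -0.01 ± 0.15, and SPCS1 -0.07 ± 0.14. No test compared the role groups with each other.

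Of the genes of ER exit, the COPII coat and the KDEL receptors, 7 of 9 were measured and 6 had changes above 0 (4 with median scaling), with a median of 0.59 (0.33 with median scaling). None passed the limma threshold, and 4 of 7 were higher at an unadjusted p under 0.05, against 11.1% of all genes. KDELR3, a receptor that returns escaped chaperones to the ER, read 9.99, 10.41 and 9.71 with stellate cells and 9.40, 9.26 and 9.32 alone. All arrays with stellate cells lay above those alone, and the change of 0.71 ± 0.18 missed the threshold narrowly (adjusted p = 0.0517). Over the alternatives the adjusted p ranged from 0.0011 with array weights to 0.541 with median scaling. With cyclic loess KDELR3 passed (adjusted p = 0.0482). Its 2 other probes had changes of 0.59 ± 0.21, with overlapping groups, and 0.45 ± 0.17, with groups apart. SEC13, a subunit of the outer coat, read 9.76, 10.01 and 10.03 against 9.28, 9.14 and 9.61. The groups lay apart, with the highest value in replicate 3 with stellate cells (0.59 ± 0.17, adjusted p = 0.0752). A dimmer probe of SEC13 had a change of 0.26 ± 0.18 with overlapping groups. The cargo-binding subunits SEC24A and SEC24D had 0.73 ± 0.26 and 0.62 ± 0.20 (adjusted p = 0.154 and 0.109), both with groups apart. The inner coat subunits SEC23A and SEC23B, in contrast, had -0.13 ± 0.28 and 0.01 ± 0.17, and the coat GTPase SAR1A 0.19 ± 0.18. No test compared the SEC24 with the SEC23 genes. SEC31A and KDELR2 had no named probe in the annotation used here.

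**Figure D4:**
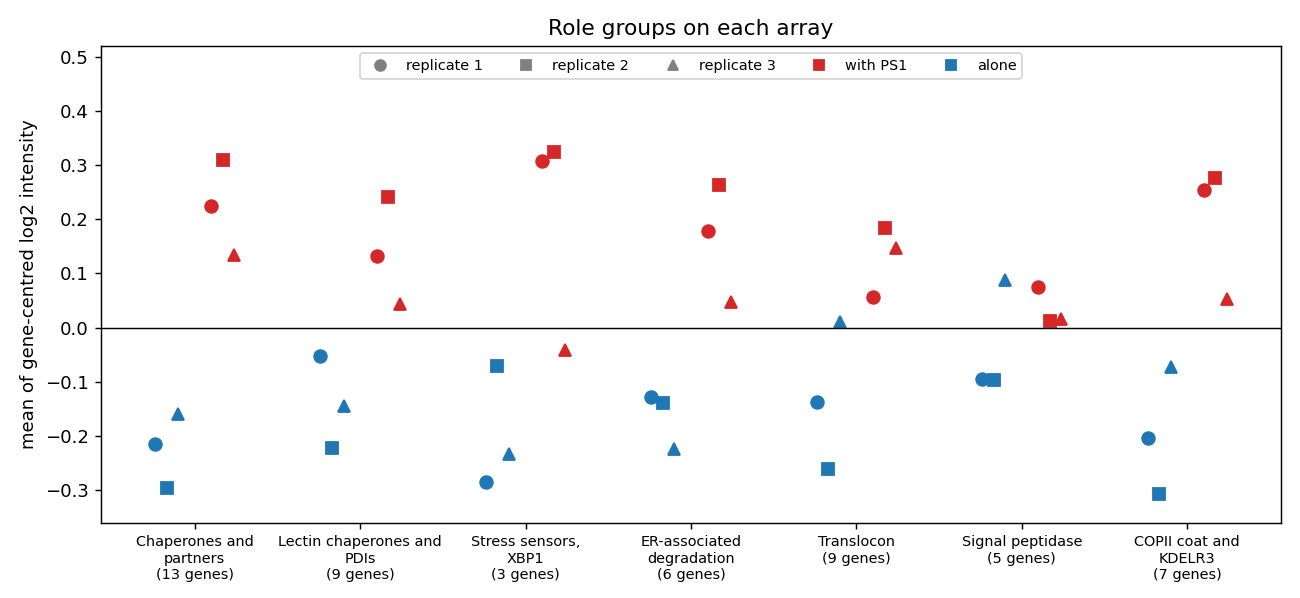
The mean of gene-centred log2 intensity (vertical axis) over the measured members of each role group on each array, blue alone and red with stellate cells. The groups of arrays lie apart for all role groups except the signal peptidase, where replicate 3 alone reads 0.09, and replicate 3 with stellate cells is the lowest red point in 5 of 7. With median scaling the median change of the signal peptidase group turns from 0.08 to -0.18, and the other 6 stay above 0. Under that scaling the median of all genes is -0.20.

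Members did not all follow the same order among the arrays with stellate cells. Replicate 3 was the lowest of the 3 in 32 of the 52 members (61.5%, against 43.1% of all genes) and the highest in 16 (30.8%, against 39.7%). The first kind held HSPA5, CRELD1, HYOU1, EDEM1, SYVN1, EIF2AK3, XBP1 and KDELR3, and the other SDF2L1, CANX, P4HB, SEC13, SRPRB, SSR1 and SSR3. Over all members the mean of centred log2 intensity was 0.17, 0.24 and 0.08 on the arrays with stellate cells and -0.15, -0.23 and -0.10 alone. Further probes were tested for 12 members, 13 in number, and 8 of these had the sign of the chosen probe while 0 passed the limma threshold. The 5 of opposite sign belong to ERP29, SEC23B, SPCS3, SSR2 and SYVN1, and lie between -0.19 and -0.00.

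Set beside the promoter letters shown above, the 9 measured members with ERSE or ERSE-II had a median change of 0.37, from 0.07 for PDIA6 to 0.88 for HSPA5, and 9 of 9 were above 0. With median scaling 2 of them, HYOU1 and PDIA6, turned below 0. The 8 members with a UPRE alone had a median of 0.39, with SEC24A and KDELR3 highest and SEC23A lowest, and 6 of 8 were above 0. With median scaling they kept their signs. The 31 members whose windows held none of the 3 elements had a median of 0.24, with 28 of 31 above 0. They include DNAJB9 and CRELD1, which rose, and HSPA13. With median scaling DNAJB11, SDF2, ATF6, DERL2, SEC61B, SSR1, SSR2, SEC11A, SPCS2, SPCS3, SAR1A and SEC23B of these members turned below 0. The 4 measured members without a window, DERL1, DERL3, SEC24D and SPCS1, had a median of 0.25, and DERL1 turned below 0 with median scaling. No test compared these groups, which overlap over most of their range.

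**Figure D5:**
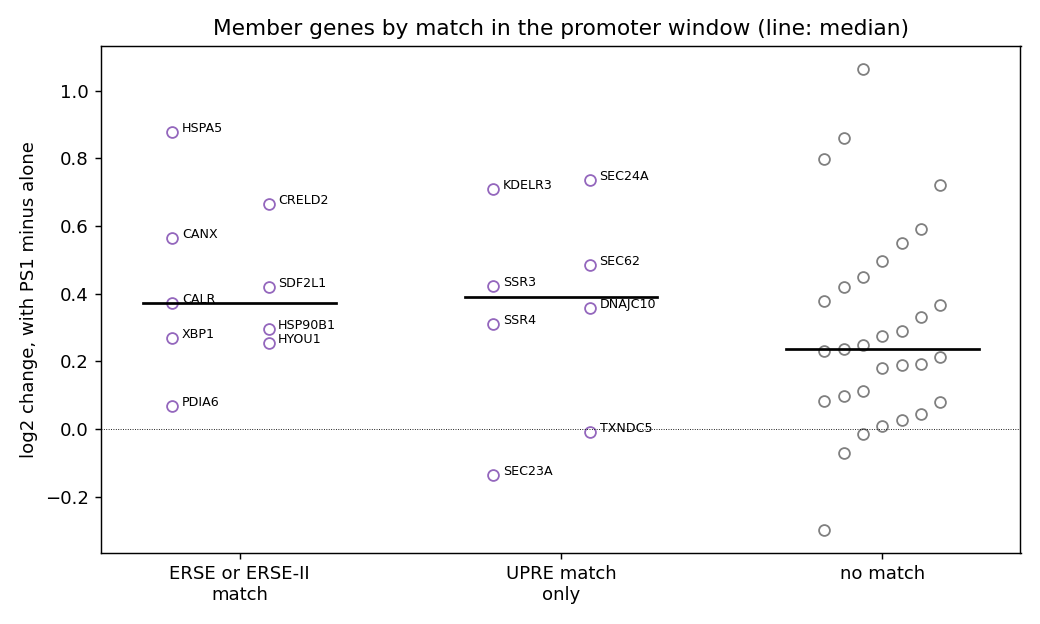
The log2 change with stellate cells minus alone (vertical axis) of the measured members with a promoter window, by promoter element, with the median as a line. DERL1, DERL3, SEC24D and SPCS1 had no window and are not shown. Medians are 0.37 for ERSE or ERSE-II, 0.39 for UPRE alone and 0.24 for no match. With median scaling HYOU1 and PDIA6 of the ERSE group fall below 0, as do several members without a match.

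The rest of the secretory pathway had a smaller median change, and the difference was not tested. Of 99 further genes of glycosylation, folding, targeting, degradation, exit and stress signalling 89 were measured, with a median change of 0.20. Changes above 0 were found in 64, or 71.9%, against 51.8% of all genes. In this list 5 rose and 0 fell, or 5.62% higher against 2.65% of all genes. Groups lay apart upward in 29 (32.6%, near the 36.5% of the members, against 14.6% of all genes) and downward in 2. An unadjusted limma p under 0.05 was found in 22 of 89 that were higher, against 11.1% of all genes, and in 3 that were lower. AGR2, an isomerase needed for mucin folding, had log2 intensities of 13.15, 12.94 and 13.20 with stellate cells and 11.84, 12.11 and 12.15 alone (2.09-fold, limma adjusted p = 0.0024). Its arrays with stellate cells all lay well above those alone. ERLEC1, a lectin of ER-associated degradation, rose by 1.80-fold, KRTCAP2, a subunit of the oligosaccharyltransferase, by 1.64-fold, TRAM1, a neighbour of the translocation channel, by 1.63-fold, and TMED3, a cargo receptor, by 1.57-fold (adjusted p = 0.0189, 0.0256, 0.0249 and 0.0244). KDELR1, the most widely known KDEL receptor, had a change of 0.58 ± 0.15, close to that of KDELR3 (adjusted p = 0.0568). UBE2J1, which passes ubiquitin to substrates of SYVN1, had 0.68 ± 0.18 (adjusted p = 0.0567). Of the 7 measured genes of the ATF4 arm below PERK 7 had changes above 0 and 0 passed. An unadjusted limma p under 0.05 was found in 3 of these 7, against 11.1% of all genes. DDIT3, which encodes CHOP, had a change of 0.89 ± 0.27 and PPP1R15A one of 0.46 ± 0.18. The 9 targeting genes had a median of -0.13, with 6 below 0, SRP54 at 0.37 ± 0.16 and TRAM1 as the 1 that rose. TUSC3, an oxidoreductase subunit of the oligosaccharyltransferase, lay at -0.59 ± 0.20 with groups apart downward (adjusted p = 0.131). Of the glycan-trimming genes UGGT2 and GANAB had 0.82 ± 0.22 and 0.45 ± 0.16, and of the remaining sublists PPIB, a proline isomerase, had 0.79 ± 0.24 and CREB3 and MBTPS1 had 0.43 ± 0.28 and 0.26 ± 0.17 (-0.02 for MBTPS1 with median scaling). With median scaling 1 gene rose and the median was -0.04, against -0.20 for all genes. Without replicate 3 with stellate cells 15 of 89 rose and 1 fell, while 9.61% of all genes were called higher in that fit. Without any other array between 1 and 4 rose, and 87 to 145 of all 18165 probes were higher in those fits. ACTB and GAPDH, as reference genes, had changes of -0.08 ± 0.16 and 0.11 ± 0.15, and both turned sign under some settings.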

How the data were processed

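Labelled cRNA of 6 laser-captured samples, 3 with stellate cells and 3 alone, was read on Illumina BeadChips. Per the file headers, each array's deposited columns are an average probe intensity and a detection p-value, without normalization between arrays. The submitters' processing notes name BeadStudio and GenomeStudio 2011.1; no source used here gives further steps. The authors' deposited value table, intensity on a linear scale, served as an alternative.

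Background was corrected with normexp from the detection p-values, with an offset of 16, then quantile normalization and log2 (limma 3.58.1, R 4.3.3). Probes detected (p under 0.05) on at least 3 of 6 arrays entered lmFit and an eBayes step that allowed an intensity trend, two-sided, with Benjamini-Hochberg adjustment over 18165 probes and a threshold of 0.05. The code was tested on simulated data. Genes were named through the platform annotation, with symbols updated to GRCh38.p14; 4176 tested probes had no symbol and 3 several. All members are named. Every array is given for members past the threshold and the 2 with the smallest p in each role group, and MANF was added after its values were seen. Members and lists were chosen with earlier results of these data known. Nothing says that replicates were separate cultures, so a p-value here covers no more than the spread of these samples, possibly a technical one. The number of arrays limits the precision.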

Additional observations from a re-analysis of the deposited data

How the results depend on the processing

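The 4 calls among the members, DNAJB9, CRELD1, HSPA5 and CRELD2, were kept without background correction, with an offset of 50, with cyclic loess, with the authors' value table, with the stricter filter and with the mean of a gene's probes. KDELR3 was called as well with cyclic loess, and PDIA4 with the stricter filter, making 5 each. The calls fell to 3 without a filter (CRELD2 lost), to 2 without the intensity trend (HSPA5 and CRELD2 lost) and to 0 with median scaling, and rose to 15 with array weights. With the replicate block 3 were kept and CRELD2 was lost (adjusted p = 0.0625). The replicate numbers were not taken to pair the samples, since deviations of same-numbered arrays correlated at -0.0247, -0.0317 and 0.0806. With 1 array left out the members called ranged from 0 to 15, probes higher from 87 to 1363 and lower from 66 to 1399, and other secretory genes higher from 1 to 15 and lower from 0 to 1. In all probes the counts were 210 higher and 199 lower without the trend, 1635 and 1726 with array weights, and 83 higher with median scaling. Other secretory genes higher numbered 1 with median scaling or without the trend and 18, with 2 lower, with array weights. Their median was -0.0441 with median scaling and 0.12 with the mean of a gene's probes, and that of the members was 0.0469 with median scaling, where the median of all genes was -0.20. The cause of these differences was not tested.

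Among 882 values of single members under these alternatives, 39 turned sign, and none of those belonged to a called member. With median scaling the log2 changes that turned sign were DNAJB11 -0.0419, SDF2 -0.0533, HYOU1 -0.0271, PDIA6 -0.193, ATF6 -0.0692, DERL2 -0.0780, DERL1 -0.0877, SEC61B -0.134, SSR1 -0.210, SSR2 -0.252, SEC11A -0.0426, SPCS2 -0.183, SPCS3 -0.172, SAR1A -0.0605, SEC23B -0.249, MBTPS1 -0.0223, KRT7 -0.0320, CDH1 -0.170, KRT19 -0.220, GAPDH -0.119. With array weights they were SSR1 -0.145, SPCS3 -0.0081, SEC23A 0.0591, ACTB 0.0701, and with the mean of a gene's probes SSR2 -0.0378, SPCS3 -0.0561, SEC23B -0.0638, GAPDH -0.0054. With 1 array left out, changes that turned sign ranged as PDIA5 -0.140 to 0.0489, ERP44 -0.126 to 0.375, TXNDC5 -0.105 to 0.0790, SSR2 -0.151 to 0.169, SEC23B -0.0802 to 0.0763, CDH1 -0.0940 to 0.416, PDIA6 -0.0736 to 0.246, SEC11C -0.110 to 0.0484, EPCAM -0.228 to 0.0331, KRT18 -0.490 to 0.099, KRT19 -0.101 to 0.163, SSR1 -0.139 to 0.165, SEC23A -0.311 to 0.129, ACTB -0.186 to 0.0898. Dim probes such as ERP44 and DERL3, detected on 3 of 6 arrays, are limited by their signal over background.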
